A study of Malus domestica with 15 samples.

Results

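The 146 loci described here are those whose transcript level in apple skin was much lower after 7 days of shelf life than at the end of 2 months of cold storage, both in fruit treated with 1-methylcyclopropene (1-MCP) and in untreated control fruit. They were chosen by their measured values. A locus was selected on a difference of log2(FPKM + 1) of -1.5 or below in each treatment, if it carried an apple gene model (an MDP number), had no value of 0 and averaged at least 1 FPKM over the 5 groups. FPKM counts fragments relative to transcript length and to the mapped fragments of a library. Of 80965 loci in the table, 30310 met the conditions on gene model and level, and the 146 were found among them. The falls themselves are therefore a description of the choice.

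The series holds 15 samples of skin (exocarp) from fruit of Malus domestica, in 5 groups of 3. They are 1-MCP fruit kept cold for 2 months and then held for 7 days of shelf life, control fruit handled in the same way, 1-MCP fruit sampled directly after the 2 months of cold storage, control fruit sampled at that same time, and untreated fruit at harvest. The 1-MCP concentration was 0.7 µl/L. The labels name neither a cultivar nor the storage temperature, and the harvest group serves both treatments.

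1-MCP is a gas that occupies the ethylene receptors of plant cells and keeps them from responding to ethylene, the hormone that drives the ripening of apples. It is used commercially to delay softening and to limit superficial scald, a browning of the skin that develops in some cultivars after cold storage and usually becomes visible once the fruit are brought back to room temperature. The move out of the cold is a change of temperature, and transcripts that plants make in the cold commonly decline when the cold ends. In the stored fruit here, the end of the cold and the passing of 7 days cannot be told apart.

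The table gave 1 FPKM value per locus and group, so no spread between replicates is known, and no difference below has a test, an error or a replicate check. Words such as fell, higher and lower refer only to a size of the difference of log2(FPKM + 1), which is 1.5 where the choice of the loci is meant and 1 everywhere else. Adding 1 before taking logs makes changes of loci at low FPKM look smaller than they are. The depth of the libraries is unknown. Over the 30310 loci the median difference between shelf life and cold storage was -0.13 in 1-MCP fruit and -0.24 in control fruit, and every change of a member is to be read against that shift. None of the 150 gene models of the 146 loci was found in the apple RefSeq table, so no locus could be given a gene name, a function, a position or a sequence, and no marker of skin or flesh could be read. In whole skin, fewer cells of a type and less RNA per cell cannot be told apart. The libraries were not strand-specific, so reads from an antisense partner cannot be separated.

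A fall of this size was uncommon in either treatment. In 1-MCP fruit 494 of the 30310 loci fell by at least 1.5 (1.63%), and in control fruit 925 did (3.05%). The 146 loci that did so in both make up 0.482%. Their median difference was -2.12 in 1-MCP fruit, between -6.78 and -1.51, and -2.25 in control fruit, between -7.19 and -1.50. In FPKM, the median locus kept 17.3% of its cold-storage level in 1-MCP fruit and 14.9% in control fruit, where the median over all 30310 loci was 90.1% and 81.7%. At most 10% of the level was left at 32 loci in 1-MCP fruit, at 53 in control fruit and at 19 in both. A fall of at least 3 log2 units was found at 22 loci in 1-MCP fruit, at 30 in control fruit and at 9 in both.

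**Figure D1:**
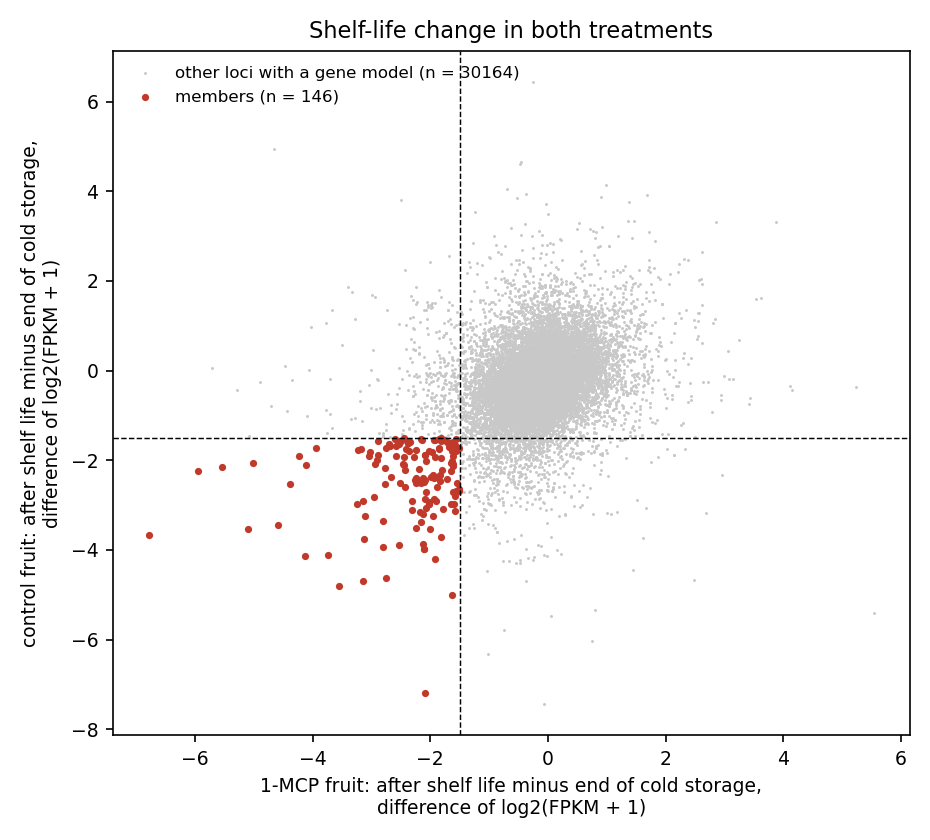
Difference of log2(FPKM + 1) between shelf life and the end of cold storage in 1-MCP fruit (horizontal axis) and control fruit (vertical axis), for the 146 members (red) and the other loci with a gene model (grey). The dashed lines stand at -1.5, the limit of the choice, and the members fill the lower left corner they enclose.

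Around the limit the loci form a continuum. Just inside it, CUFF.17714 (MDP0000413631) differed by -1.83 in 1-MCP fruit and -1.502 in control fruit, and CUFF.34124 (MDP0000301675) by -1.51 in 1-MCP fruit and -2.64 in control fruit. CUFF.30241 (MDP0000466251), also just inside, differed by -2.45 in 1-MCP fruit and -1.51 in control fruit. Just outside stood MDP0000698024, with -1.69 in 1-MCP fruit and -1.499 in control fruit, and CUFF.25895 (MDP0000294594), with -1.497 in 1-MCP fruit and -2.34 in control fruit. CUFF.46591 (MDP0000367733), also just outside, had -1.49 in 1-MCP fruit and -1.55 in control fruit. In the change nearest the limit, loci on either side of it differed by hundredths of a log2 unit.

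The members ranged from traces to some of the more abundant transcripts of the skin. Their median level was 20.02 FPKM at harvest. In 1-MCP fruit it was 29.2 FPKM when cold storage ended and 5.03 FPKM after shelf life, and in control fruit 27.9 and 4.55 FPKM. Over all 30310 loci the medians ran from 7.98 to 11.1 FPKM. At least 100 FPKM was reached by 30 members at harvest, by 41 in 1-MCP fruit and 35 in control fruit when cold storage ended, and by 10 in 1-MCP fruit and 8 in control fruit after shelf life. Of all 30310 loci, 8.08% reached it at harvest, and 7.63% in 1-MCP fruit and 7.80% in control fruit in the cold. After shelf life 7.10% did in 1-MCP fruit and 6.90% in control fruit. The choice favours high values in the cold and low values after shelf life. Together the members held 1.48% of the summed FPKM of the table at harvest. In 1-MCP fruit they held 1.48% when cold storage ended and 0.301% after shelf life, and in control fruit 0.978% and 0.150%. Most of that sum lay in few loci, since the 10 highest members held between 65.8% and 84.2% of it, depending on the group.

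Gene models without an assembled locus were frequent among the members. They were 81 of the 146 (55.5%), against 6801 of the 30310 loci (22.4%), and the remaining 65 were assembled loci (CUFF numbers) that carry a gene model. The share was also high among loci that fell in 1 treatment while changing by less than 0.5 downward in the other. It was 57.1% of the 196 loci that fell in 1-MCP fruit alone and 47.8% of the 406 that fell in control fruit alone, and 23.5% of the 34 loci that rose by at least 1.5 in both. What sets the 2 kinds of locus apart in the submitters' processing is not given, and its part in these shares was not tested.

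Some members have near copies in the table. Within 10% in all 5 groups, a tolerance chosen after the values were seen, 4 pairs of members were alike, and counting each pair once leaves 142. One of them, CUFF.19200 (MDP0000284838) and CUFF.24023 (MDP0000149332), had the same value in all 5 groups, as did 852 of the 30310 loci (2.81%) with some other locus. How reads that fit several loci were counted is not given, so the levels of such pairs are uncertain.

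Of the 6 loci with the largest falls shared by both treatments, ranked by the smaller of the 2 falls, 4 had stood at least 1 above harvest in the cold in both treatments. Where a locus is given a pair of FPKM values per treatment, they are its level when cold storage ended and its level after shelf life. CUFF.6278 (MDP0000041328 and MDP0000041327) was at 51.4 FPKM at harvest. In 1-MCP fruit it was at 451 FPKM when cold storage ended and 24.8 FPKM after shelf life, and in control fruit at 390 and 21.4 FPKM. The fall was -4.13 in 1-MCP fruit and -4.12 in control fruit, and both treatments ended at least 1 log2 unit below harvest. CUFF.20581 (MDP0000530792) had 33.6 FPKM at harvest, then 180 and 12.6 FPKM in 1-MCP fruit and 224 and 12.1 FPKM in control fruit. These 2 loci followed nearly the same course in both treatments, with treatment differences no larger than 0.31 at either time.

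The other loci with the largest shared falls differed more between treatments. MDP0000361521 was at 102 FPKM at harvest, at 777 FPKM in 1-MCP fruit and 294 in control fruit when cold storage ended, and at 6.10 FPKM in 1-MCP fruit and 22.1 in control fruit after shelf life. It was thus higher with 1-MCP in the cold and lower with 1-MCP afterwards, and its difference of -6.78 was the most negative of all members in 1-MCP fruit. MDP0000764876 had 112 FPKM at harvest, 411 and 11.1 FPKM in 1-MCP fruit, and 204 and 16.7 FPKM in control fruit. MDP0000219404 had 73.4 FPKM at harvest, 219 and 8.15 FPKM in 1-MCP fruit, and 117 and 9.81 FPKM in control fruit. In these 3 loci the fall was the larger in 1-MCP fruit, and all 3 ended below harvest in both treatments. MDP0000243375, nearly silent at harvest with 0.394 FPKM, had 15.3 and 0.386 FPKM in 1-MCP fruit and 43.1 and 0.567 FPKM in control fruit, and so returned to its harvest level.

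**Figure D2:**
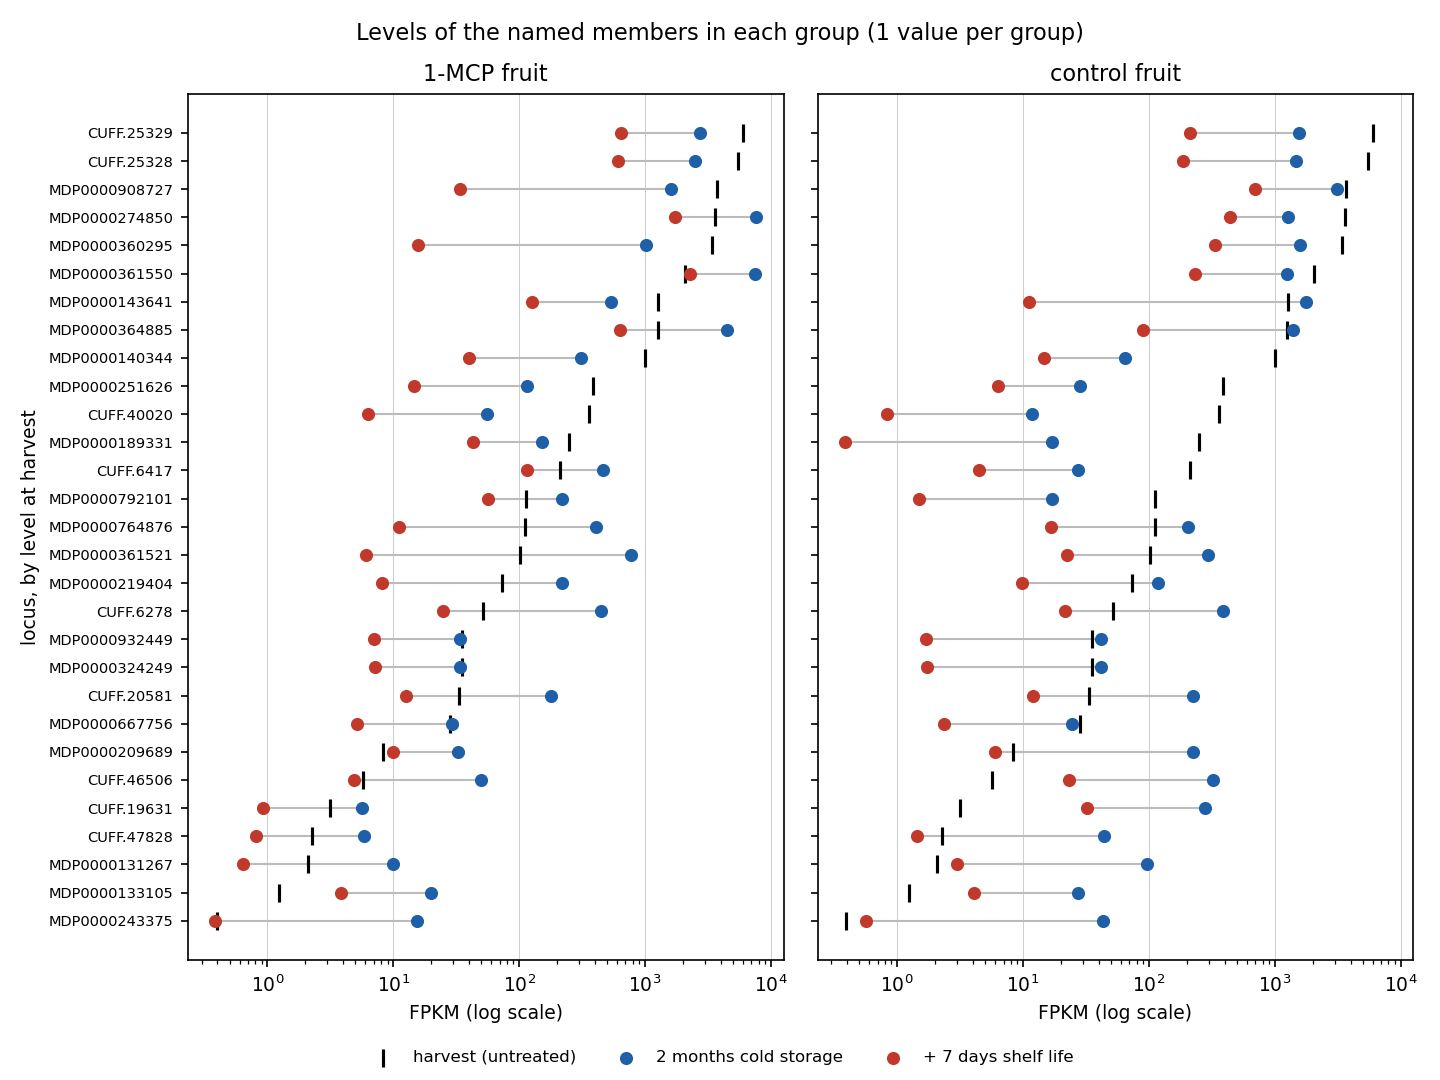
Levels in FPKM (horizontal log axis) of the 29 named members in 1-MCP fruit (left) and control fruit (right), with harvest as a black bar, the end of cold storage in blue and the level after shelf life in red, ordered by the level at harvest. Each point is the single value of a group. In every row the red point lies left of the blue one, while the harvest bar lies right of both, between them or left of both.

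Harvest was not used to choose the members except through the conditions on level, and it splits them into several courses. The limits below are 1 log2 unit from harvest in each treatment when cold storage ended. Because the choice favours loci that are high in the cold, counts above harvest lean upward by construction, and both comparisons share the harvest value. Of the 146 members, 39 (26.7%) stood above harvest in both treatments, against 468 of the 30310 loci (1.54%). Another 37 (25.3%) were within 1 of harvest in both, where 73.8% of all loci were. Below harvest in both were 13 (8.90%), against 5.15% of all loci. The remaining 57 fell into different classes in the 2 treatments.

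**Figure D3:**
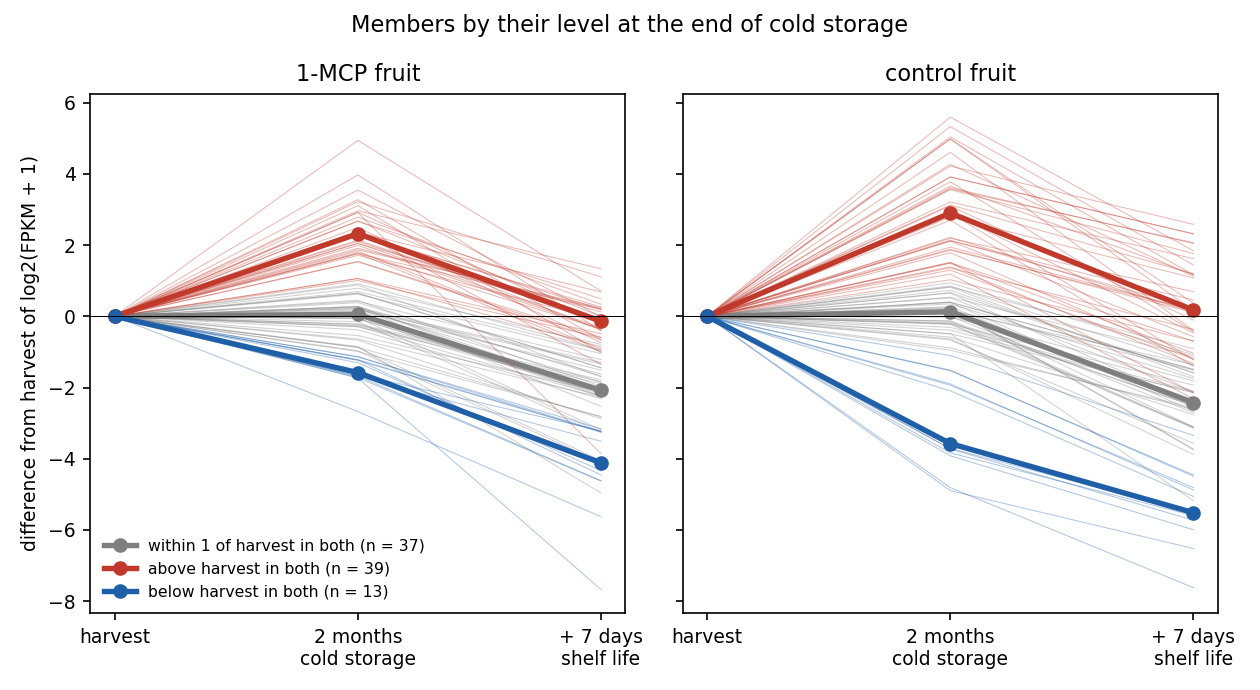
Difference of log2(FPKM + 1) from harvest (vertical axis) over the 3 sampling times in 1-MCP fruit (left) and control fruit (right). Thin lines are single members and thick lines medians of the 39 members above harvest in both treatments (red), the 37 within 1 of it (grey) and the 13 below it (blue), while the 57 whose classes differ are not drawn. The red medians peak in the cold and return to near the harvest level, and the blue medians decline at both steps.

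The 39 loci above harvest in both treatments were, by their class and the required fall, higher in the cold than at harvest and lower again after shelf life. Their median level was 4.17 FPKM at harvest. It was 27.7 FPKM in 1-MCP fruit and 43.1 in control fruit when cold storage ended, and 3.82 FPKM in 1-MCP fruit and 6.03 in control fruit after shelf life. Relative to harvest, the median difference in the cold was 2.32 in 1-MCP fruit and 2.902 in control fruit, and after shelf life -0.14 in 1-MCP fruit and 0.18 in control fruit. After shelf life 34 of the 39 were within 1 of harvest in 1-MCP fruit, 2 were above and 3 below. In control fruit 17 were within 1, 14 above and 8 below. In both treatments 3 of the 39 were below, against 0.641% of all 468 loci above harvest in the cold in both. For the other counts no share over those 468 loci was computed, so they are a description only. The 2 still above harvest in 1-MCP fruit were MDP0000069348 and MDP0000133105.

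Among those with the largest differences from harvest in both treatments, the end point varied. MDP0000133105 was at 1.24 FPKM at harvest, at 19.9 and 3.82 FPKM in 1-MCP fruit and at 27.3 and 4.04 FPKM in control fruit, so that it ended more than 1 log2 unit above harvest in both. CUFF.46506 (MDP0000222403) was at 5.70 FPKM at harvest, at 49.8 and 4.83 FPKM in 1-MCP fruit, and at 323 and 23.0 FPKM in control fruit. It returned to its harvest level in 1-MCP fruit alone, and in control fruit it stayed 1.84 log2 units above.

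The 37 loci near harvest in both treatments were, by their class and the required fall, close to harvest in the cold and below it after shelf life. Their median level was 17.4 FPKM at harvest. It was 16.1 FPKM in 1-MCP fruit and 19.5 in control fruit when cold storage ended, and 2.89 FPKM in 1-MCP fruit and 2.36 in control fruit after shelf life. Each of them had to end at least 0.5 below harvest, and 34 were at least 1 below it in 1-MCP fruit, 36 in control fruit and 33 in both. Among all 22360 loci near harvest in the cold, 1.76% were at least 1 below it in both treatments after shelf life. Closer to harvest, within 0.5 in both treatments, were 12 of them.

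MDP0000667756 is an example of this course. It was at 28.2 FPKM at harvest, at 29.3 and 5.11 FPKM in 1-MCP fruit and at 24.4 and 2.36 FPKM in control fruit. MDP0000932449 was at 35.2 FPKM at harvest, at 33.7 and 7.02 FPKM in 1-MCP fruit and at 41.4 and 1.69 FPKM in control fruit, and MDP0000324249 is its near copy. Of the cold level, 20.8% and 21.1% were left in 1-MCP fruit and 4.09% and 4.11% in control fruit.

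The 13 loci below harvest in both treatments declined at both steps and had the highest harvest levels of these courses, with a median of 680 FPKM and a highest value of 6024 FPKM. At the end of cold storage their median was 266 FPKM in 1-MCP fruit and 38.1 in control fruit, and after shelf life 24.4 FPKM in 1-MCP fruit and 10.2 in control fruit. That all 13 were below harvest after shelf life follows from their class and the required fall. With 1-MCP they were higher than in control fruit at 7 of the 13 in the cold and lower at none, and after shelf life higher at 12 and lower at 1. The same lean is found in all 1560 loci below harvest in both treatments, of which 19.4% were higher and 6.28% lower with 1-MCP in the cold, and 31.7% higher and 7.37% lower after shelf life.

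In this group CUFF.40020 (MDP0000921319) was at 361 FPKM at harvest, at 55.7 and 6.31 FPKM in 1-MCP fruit and at 11.9 and 0.836 FPKM in control fruit. MDP0000140344 was at 997 FPKM at harvest, at 312 and 39.7 FPKM in 1-MCP fruit and at 64.9 and 14.6 FPKM in control fruit. MDP0000251626 was at 386 FPKM at harvest, at 117 and 14.6 FPKM in 1-MCP fruit and at 28.3 and 6.30 FPKM in control fruit. In all 3 the cold step was steeper in control fruit, with differences from harvest of -4.81, -3.92 and -3.73 against -2.68, -1.67 and -1.72 in 1-MCP fruit. MDP0000222430 and MDP0000166139, named after their values were seen, had the same shape, with 680 and 511 FPKM at harvest. They were at 291 and 206 FPKM in 1-MCP fruit and at 46.7 and 38.1 FPKM in control fruit when cold storage ended.

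CUFF.25329 (MDP0000689622) and CUFF.25328 (MDP0000360772 and MDP0000360672) were the members with the highest harvest levels. CUFF.25329 was at 6024 FPKM at harvest, at 2734 and 640 FPKM in 1-MCP fruit and at 1572 and 213 FPKM in control fruit. CUFF.25328 was at 5474 FPKM at harvest, at 2493 and 611 FPKM in 1-MCP fruit and at 1468 and 185 FPKM in control fruit. CUFF.25331 (MDP0000360414), seen to carry a nearby number after the values were known, had 2478 FPKM at harvest and the same shape. Whether the 3 loci are neighbours in the genome or share reads was not tested.

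The exception among the 13 was MDP0000360295, the member that was lower with 1-MCP after shelf life. It was at 3405 FPKM at harvest, at 1024 and 15.6 FPKM in 1-MCP fruit and at 1587 and 333 FPKM in control fruit. MDP0000908727 had a similar course, with 3716 FPKM at harvest, 1624 and 34.1 FPKM in 1-MCP fruit and 3102 and 700 FPKM in control fruit. Both loci lost most of their cold level in both treatments, and more of it in 1-MCP fruit. There 1.53% and 2.10% of the cold level were left, against 21.0% and 22.6% in control fruit. After shelf life they were the 2 members with the most negative treatment difference, -4.33 and -4.32.

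Among the 57 loci whose classes differed, all but 2 were near harvest in 1 treatment and away from it in the other. Shares in brackets are of all members and then of all loci. Above harvest in 1-MCP fruit alone were 17 loci (11.6%, all loci 3.26%), and above it in control fruit alone 13 (8.90%, all loci 4.45%). Below harvest in 1-MCP fruit alone were 8 loci (5.48%, all loci 3.88%), and below it in control fruit alone 17 (11.6%, all loci 7.03%). The 17 loci below harvest in control fruit alone had a median of 42.6 FPKM at harvest. They had medians of 33.1 FPKM in 1-MCP fruit and 12.8 in control fruit in the cold, and of 5.84 FPKM in 1-MCP fruit and 1.08 in control fruit following shelf life. The 17 loci above harvest in 1-MCP fruit alone had medians of 102 FPKM in 1-MCP fruit and 28.8 in control fruit in the cold, and of 26.3 FPKM at harvest.

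In 2 loci the treatments lay on opposite sides of harvest, above it in 1-MCP fruit and below it in control fruit. They are 1.37% of the members, against 0.310% of all loci. The reverse was found at no member and at 0.604% of all loci. CUFF.6417 (MDP0000134685) was at 211 FPKM at harvest, at 464 and 116 FPKM in 1-MCP fruit and at 27.5 and 4.46 FPKM in control fruit. MDP0000274850 was at 3629 FPKM at harvest, at 7696 and 1721 FPKM in 1-MCP fruit and at 1273 and 442 FPKM in control fruit. Both were higher with 1-MCP at both times. The fall of MDP0000274850 in control fruit was -1.52 as deposited but -1.29 after 75th percentile scaling and -1.23 after trimmed mean scaling, short of the limit for membership.

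After shelf life most members stood below harvest. In both treatments 83 of the 146 (56.8%) were at least 1 below, against 7.41% of all 30310 loci, a share that the choice of low values after shelf life pushes up. Above harvest after shelf life were 2 members in 1-MCP fruit (1.37%, all loci 3.09%) and 15 in control fruit (10.3%, all loci 6.37%). Within 1 of harvest in both treatments were 18 members (12.3%, all loci 67.5%), 16 of them among the 39 loci above harvest in the cold in both.

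The choice set no limit on the difference between treatments, but it used the same 4 stored-fruit values. Selecting loci with large changes between those values raises the counts of treatment differences by construction, so the shares below are a description. At the end of cold storage 41 members were higher with 1-MCP (28.1%, all loci 8.9%) and 33 lower (22.6%, all loci 8.03%). After shelf life 44 were higher with 1-MCP (30.1%, all loci 12.7%) and 27 lower (18.5%, all loci 8.37%). At both times 32 were higher (21.9%, all loci 5.68%) and 22 lower (15.1%, all loci 5.52%). Both directions were present at both times. Across the 146 members, Pearson's r between the 2 treatment differences was 0.73 and Spearman's rho 0.76. Over all loci, members included, they were 0.76 and 0.69, so r was lower in the members and rho higher. Both are given as a description, since the loci share their libraries.

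**Figure D4:**
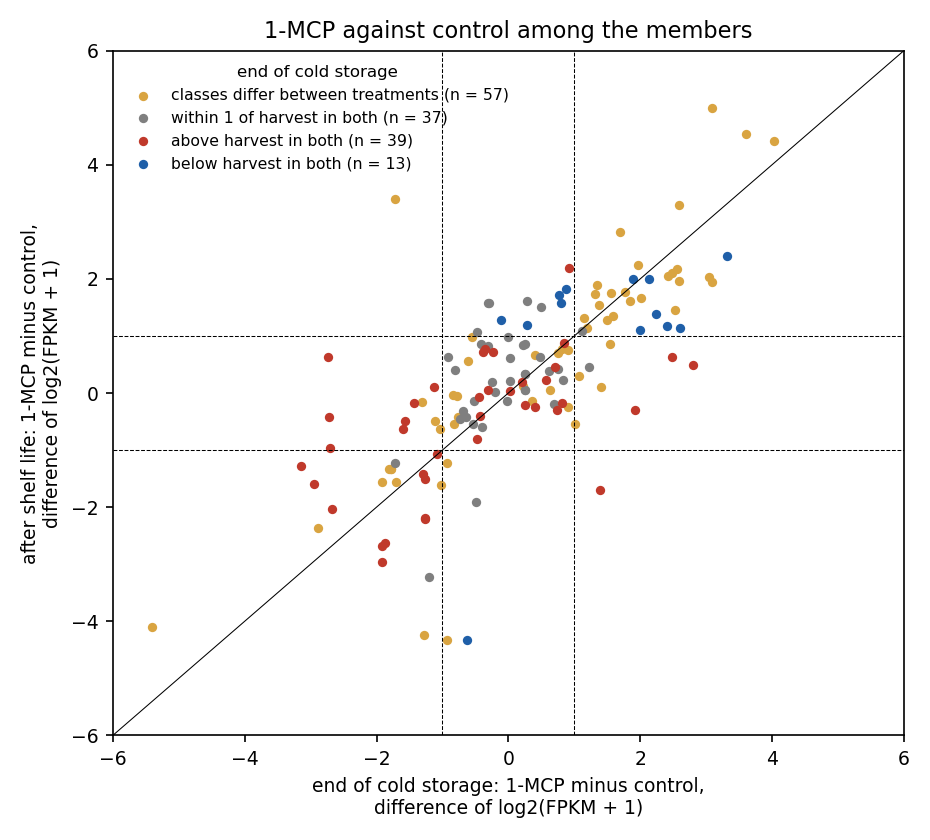
The 1-MCP value minus the control value of log2(FPKM + 1) in the cold (horizontal axis) and after shelf life (vertical axis) for the 146 members, coloured by their class in the cold. The dashed lines stand at 1 and -1 and the solid line marks equal differences. The loci below harvest in both treatments (blue) lie at or above 1 after shelf life, save 1, and those above harvest in both (red) reach further down than up.

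In the courses away from harvest the treatment differences leaned the way they did in all loci of that course. Of the 39 loci above harvest in both treatments, 18 were lower with 1-MCP in the cold and 4 higher, and after shelf life 12 were lower and 1 higher. Among all 468 loci above harvest in both treatments, 20.9% were lower and 5.77% higher with 1-MCP in the cold, and 26.3% were lower and 12.8% higher after shelf life. Of the 37 near harvest, 2 were higher and 2 lower in the cold, and 6 were higher and 3 lower after shelf life. Among all 22360 loci near harvest in both treatments, 2.74% were higher and 1.73% lower in the cold. After shelf life 7.22% of them were higher and 3.30% lower. All of these counts are a description, since the courses are defined by the cold-storage values and the differences at the 2 times go together.

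The strongest treatment differences in the cold reached several log2 units. CUFF.6417, described above, differed by 4.03 and MDP0000792101 by 3.61. MDP0000792101 was at 113 FPKM at harvest, at 220 and 57.1 FPKM in 1-MCP fruit and at 17.1 and 1.48 FPKM in control fruit, and its difference after shelf life was 4.55. MDP0000189331 had the most positive difference after shelf life, 4.99, with 251 FPKM at harvest, 153 and 42.9 FPKM in 1-MCP fruit and 17.1 and 0.382 FPKM in control fruit. In control fruit all 3 stood far below harvest before shelf life began. In 1-MCP fruit at that time, CUFF.6417 differed from harvest by 1.13, MDP0000792101 by 0.96 and MDP0000189331 by -0.71.

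In the other direction stood loci that were high in the cold in control fruit. CUFF.19631 (MDP0000398765) was at 3.13 FPKM at harvest, at 5.63 and 0.917 FPKM in 1-MCP fruit and at 280 and 32.0 FPKM in control fruit, a difference of -5.41 in the cold. MDP0000131267 was at 2.09 FPKM at harvest, at 10.001 and 0.634 FPKM in 1-MCP fruit and at 96.9 and 2.98 FPKM in control fruit, a difference of -3.15. Both stood far above harvest in the cold without 1-MCP, and with 1-MCP stood nearer to it.

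Among the 6 most abundant members by the mean of both cold values, 5 were higher with 1-MCP after shelf life and 1 was lower. That ranking favours loci that are high with 1-MCP, and of the 6 highest in the cold in control fruit, 3 were higher with 1-MCP after shelf life and 2 lower. MDP0000361550 was at 2064 FPKM at harvest, at 7494 and 2293 FPKM in 1-MCP fruit and at 1246 and 234 FPKM in control fruit. MDP0000364885 was at 1261 FPKM at harvest, at 4464 and 638 FPKM in 1-MCP fruit and at 1385 and 89.2 FPKM in control fruit. With MDP0000274850, these were the 3 highest by their mean level in the cold, and all 3 were higher with 1-MCP at both times. CUFF.25329 and CUFF.25328, also among the 6 highest, differed by 0.80 and 0.76 in the cold and were higher with 1-MCP after shelf life. MDP0000908727, the other one, was lower with 1-MCP after shelf life.

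Although every member fell in both treatments, the size of the fall was often not the same. It was larger in 1-MCP fruit at 67 members and in control fruit at 79, a split that was not computed over all loci. The 2 falls were within 1 log2 unit of each other at 99 (67.8%), where the 2 changes were so at 88.9% of all loci. The change was more positive with 1-MCP by at least 1 at 28 members (19.2%, all loci 6.28%) and more negative by at least 1 at 19 (13.01%, all loci 4.86%). The median of the difference was 0.10 in the values as deposited and -0.03 after quantile normalization. Over all 30310 loci this median was 0.12 as deposited and 0.01 after quantile normalization.

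Single loci departed much further. MDP0000143641 was at 1279 FPKM at harvest, at 539 and 127 FPKM in 1-MCP fruit and at 1773 and 11.1 FPKM in control fruit. Its fall of -7.19 in control fruit exceeded that of -2.08 in 1-MCP fruit by 5.11 log2 units, and it was lower with 1-MCP in the cold and higher with 1-MCP afterwards. MDP0000209689 was at 8.28 FPKM at harvest, at 33.0 and 9.91 FPKM in 1-MCP fruit and at 225 and 6.03 FPKM in control fruit. CUFF.47828 (MDP0000697206) was at 2.28 FPKM at harvest, at 5.83 and 0.806 FPKM in 1-MCP fruit and at 44.0 and 1.43 FPKM in control fruit. These 2 loci had a far higher level in the cold in control fruit and ended near the level of 1-MCP fruit. At the opposite end were MDP0000360295, MDP0000908727 and MDP0000361521, whose falls were larger in 1-MCP fruit, with a difference between the changes (1-MCP minus control) of -3.70, -3.39 and -3.10.

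Loci that fell in 1 treatment alone had, in that treatment, a median cold level within 1 log2 unit of that of the members. The required falls draw on these levels in every set. In 1-MCP fruit, the medians when cold storage ended were 29.2 FPKM in the members and 24.6 FPKM in the 196 loci that fell in 1-MCP fruit alone. In control fruit, they were 27.9 FPKM in the members and 19.8 FPKM in the 406 loci that fell in control fruit alone. In the other treatment only changes above -0.5 were admitted, a condition that disfavours high cold levels there. The medians in that treatment lay further below those of the members. They were 11.6 FPKM in control fruit for the 196 loci and 18.8 FPKM in 1-MCP fruit for the 406. The median difference of the cold level from harvest was 0.64 in 1-MCP fruit and 0.47 in control fruit for the members. For the loci that fell in 1-MCP fruit alone it was 0.63 in 1-MCP fruit and -0.38 in control fruit. For those that fell in control fruit alone it was -0.18 in control fruit and -0.41 in 1-MCP fruit. No test of these differences was possible.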

How the data were processed

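RNA from apple skin was sequenced in 15 libraries as 100-base reads from kits that do not mark the strand, per the labels' protocols. TopHat2, Cufflinks and Cuffdiff were used, per the submitters' processing notes, with versions, build and annotation not given in the sources used here. The deposited values are FPKM with decimal commas, in 1 column for each of the 5 groups, per the file headers. The headers do not say whether a value stands for all 3 libraries of its group, and the column of 1-MCP fruit after shelf life lacks a prefix that the others carry. Depth is unknown. An exact 0 in such values can be a failed estimate, so loci with one were left out.

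Differences of log2(FPKM + 1) were computed with pandas 2.3.3 and numpy 2.4.6 and tested on simulated data. The members, the lists and the rule for named loci were chosen with earlier results of these data known. Named loci have at least 5 FPKM in both cold-storage columns (125 of the 146 members). They are the 6 with the largest shared fall, the 6 most abundant in the cold, the extremes of each contrast and the loci nearest the limit. Lists of gene families could not be filled. Alternatives were 75th percentile, trimmed mean (30%) and quantile scaling, pseudocounts, filters on level and on 0, and other limits.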

Additional observations from a re-analysis of the deposited data

How the results depend on the processing

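Scaling moved the median shelf-life difference of all loci from -0.13 in 1-MCP fruit and -0.24 in control fruit to between -0.02 and 0.02 in 1-MCP fruit and between -0.05 and 0.01 in control fruit. The number of members was 109 after 75th percentile scaling, 102 after trimmed mean scaling and 97 after quantile normalization, of which 109, 102 and 95 were among the 146. Of the 32 named members, MDP0000274850 (75th percentile and trimmed mean scaling) and the 3 nearest the limit (all 3 scalings) lost their place. With a pseudocount of 0.1 it was 337, with 5 it was 60, and with 0, tried after seeing the data, 408. A required fall of at least 1 gave 501 and one of at least 2 gave 58. Assembled loci with a gene model alone gave 65, a mean of at least 5 FPKM 125, and near copies counted once 142. Members higher with 1-MCP after shelf life were 39.8% with a pseudocount of 0.1, and members below harvest in both treatments in the cold were 15% with a pseudocount of 5. A larger pseudocount shrinks the differences of low loci by construction, and the cause of the other changes was not tested. Of 85 alternative values of the main counts and shares 76 stayed close, and of 340 for the named loci 313 did. Close is a wide term here, since 102 members in place of 146 still counted as close. None reversed, but counts and shares cannot be negative and the members were chosen for large falls, so this says little. No paired analysis was possible because each group has a single column, with no replicate values. Leaving out a replicate could not be run for the same reason. The depth behind each value is unknown, so what depth limits could not be measured.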

Other observations

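Assembled loci without a gene model held further falls of the same kind. Of 11977 such loci with no value of 0 and a mean of at least 1 FPKM, 39 (0.326%) fell by at least 1.5 in both treatments. Their median was 14.5 FPKM at harvest. It was 31.9 FPKM in 1-MCP fruit and 28.9 in control fruit when cold storage ended, and 5.92 FPKM in 1-MCP fruit and 4.40 in control fruit following shelf life. In the cold 17 of the 39 stood above harvest in both treatments and 2 below it. With 1-MCP, 9 were higher and 5 lower in the cold, and 11 were higher and 7 lower after shelf life. The shares over all 11977 loci are not given here, so these counts are a description only.

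Loci listed at 0 in at least 1 group were left out of the choice. Of 543 such loci with a gene model and a mean of at least 1 FPKM, 30 (5.52%) had both falls. Most of the 30 were listed at 0 after shelf life in at least 1 treatment. Such a 0 can be a failed estimate, so these falls and their share are uncertain. MDP0000362128, chosen after its values were seen, was listed at 0 at harvest, at 451 FPKM in 1-MCP fruit and 391.6 in control fruit when cold storage ended, and at 0 in both treatments after shelf life. CUFF.42316 (MDP0000362503), chosen in the same way, was listed at 0 at harvest, at 120 and 26.2 FPKM in 1-MCP fruit and at 546 and 29.7 FPKM in control fruit in the cold and then after shelf life.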
